A study of Mus musculus with 6 samples.

Results

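Expression of 10 genes that mark leukocytes or make up MHC class II antigen presentation was examined in YFP-marked luminal mammary epithelial cells (MECs) of Runx1-null and Runx1-WT mice, as a check on leukocytes carried over through the sort. The members were chosen by name: Ptprc, Cd52, Laptm5, Tyrobp, Fcer1g and Coro1a for leukocytes, and Cd74, H2-Aa, H2-Ab1 and H2-Eb1 for MHC class II. All 22 probe sets that the array annotation assigns to exactly 1 of these symbols were used, and the 10 genes are 10 of 18194 with such a probe set. RNA came from adult virgin females of a mixed B6/129/FVB background. The Runx1-null group held 3 MMTV-Cre;Runx1L/L;R26Y mice, in which Cre deletes the floxed Runx1 allele and switches on the YFP reporter, and the Runx1-WT group held 3 MMTV-Cre;Runx1+/+;R26Y mice, which carry the same Cre and reporter. Each mouse gave 1 array, and differences are always Runx1-null minus Runx1-WT on the log2 scale of the linear intensity. Cre is driven here by the mouse mammary tumor virus promoter, which the study describes as leaky in hematopoietic cells of the bone marrow, so a YFP mark alone does not make a cell epithelial. The gate also removed cells stained for CD31, CD45 and TER119, and CD45 is the product of Ptprc. The MHC haplotype of each mouse is not given in the sources used here, and whether it bears on the class II probe sets was not tested.

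Leukocytes share a set of proteins that epithelial cells mostly lack. Ptprc encodes the receptor tyrosine phosphatase CD45, Coro1a an actin-binding coronin, Laptm5 a lysosomal membrane protein and Cd52 a small GPI-anchored glycoprotein, while Tyrobp and Fcer1g encode signaling adapters that carry immunoreceptor activation motifs and pair with receptors of myeloid and NK cells. MHC class II molecules are pairs of an alpha and a beta chain that display peptides to CD4+ T cells. H2-Aa and H2-Ab1 encode the chains of I-A and H2-Eb1 the beta chain of I-E, and Cd74 encodes the invariant chain that guides them to the endosome. B cells, dendritic cells and macrophages make class II constitutively, and epithelial cells can make it after exposure to interferon gamma through the coactivator CIITA. In the mammary gland, macrophages, dendritic cells and T cells lie close to the ducts.

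Class II genes share a promoter module that ends in the Y box, an inverted CCAAT element bound by NF-Y. The promoters of an alpha and a beta chain gene are shown. Both genes were highest in the same mouse, as were all other members, and whether their promoters bear on this was not tested. The sequences are RefSeq windows of GRCm38.p6 that run from 250 bases before to 50 bases after the start of the gene. Capitals mark the Y box core searched here, CTGATTGG, on either strand.
H2-Aa (chr17:34287774-34288073, minus strand): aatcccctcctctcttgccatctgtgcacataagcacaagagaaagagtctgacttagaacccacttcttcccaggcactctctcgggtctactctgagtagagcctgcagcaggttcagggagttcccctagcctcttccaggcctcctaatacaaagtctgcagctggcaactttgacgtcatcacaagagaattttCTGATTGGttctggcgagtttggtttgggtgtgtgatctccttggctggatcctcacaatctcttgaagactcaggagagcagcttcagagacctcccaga
H2-Eb1 (chr17:34305617-34305916, plus strand): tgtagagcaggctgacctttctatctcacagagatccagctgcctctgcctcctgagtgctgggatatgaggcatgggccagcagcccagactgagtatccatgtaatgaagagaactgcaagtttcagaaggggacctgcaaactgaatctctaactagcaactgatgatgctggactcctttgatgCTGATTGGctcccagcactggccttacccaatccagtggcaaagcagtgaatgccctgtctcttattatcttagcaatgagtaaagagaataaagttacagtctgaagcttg
The core was present in both of these promoters and in 4.1% of the 32851 promoter windows in the table. Promoter windows of 6 members were searched, and the other 4 of these (Ptprc, Laptm5, Fcer1g and Coro1a) held no such core. No window of Cd74, Cd52, Tyrobp or H2-Ab1 was searched. Windows on 1 chromosome were left out for the members but kept in the shares over all windows. The hexamer ACCACA, or TGTGGT on the other strand, which RUNX proteins bind, was found in 1 of the 6 members, Fcer1g, and in 16.8% of all windows. The Fcer1g window is shown with its match in capitals, because RUNX1 is the factor deleted in these mice.
Fcer1g (chr1:171234300-171234599, minus strand): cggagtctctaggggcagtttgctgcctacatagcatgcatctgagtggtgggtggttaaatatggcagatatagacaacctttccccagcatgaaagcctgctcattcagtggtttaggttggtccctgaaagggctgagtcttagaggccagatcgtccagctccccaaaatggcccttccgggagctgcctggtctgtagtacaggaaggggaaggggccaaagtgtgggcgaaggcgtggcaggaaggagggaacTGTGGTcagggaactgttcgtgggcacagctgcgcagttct
These matches describe letters in the windows only, and binding was not measured.

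Runx1-WT mouse 3 stands apart for the genes described here, so results are given with and without it. Luminal epithelial markers were bright in every mouse. All 9 luminal epithelial markers were tested, and none passed limma. Epcam, an epithelial adhesion molecule, ranged from 9411 to 10667 over the 6 mice, and Krt8, a luminal keratin, from 10459 to 12535. The median of the 9 genes, each set against its own median over the mice, stayed between -0.08 and 0.10 on the log2 scale. Over all arrays, limma called 0 of 12152 tested genes between genotypes at an adjusted p under 0.05 and gave 234 at an unadjusted p under 0.05, and 18.8% to 22.3% of probe sets per array lay below the floor used here (19.335). Gapdh probe sets at the 3' end exceeded those at the 5' end, which reflects RNA integrity, by 0.46 on the log2 scale in Runx1-WT mouse 3 and 0.46 to 0.61 in the others. The same difference for actin was 0.74 in Runx1-null mouse 3 and 0.44 to 0.52 in the other mice, and Runx1-null mouse 3 also had the highest Gapdh value and the largest share of probe sets below the floor. Runx1 itself read 4082, 3855 and 2015 in Runx1-WT mice, against 3473, 4820 and 2277 in Runx1-null mice by its brightest probe set. Whether that probe set reads the deleted exon is not given in the sources used here, so it does not check the labels.

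All 10 members were highest in the same mouse, Runx1-WT mouse 3. Ptprc had intensities of 24.8, 24.8 and 205 in Runx1-WT mice 1, 2 and 3, and of 47.4, 18.3 and 33.8 in Runx1-null mice 1, 2 and 3. Its value in Runx1-WT mouse 3 was 4.32 times that in the next mouse, whereas the 5 other mice lay between 18.3 and 47.4. Ptprc fell short of the filter on dim probe sets (a mean of 73.5), so its test comes from a fit without a filter. Coro1a was at 46.5, 43.2 and 488 in Runx1-WT mice, against 117, 29.7 and 98.9 in Runx1-null mice. Cd52 was at 61.5, 69.3 and 579 in Runx1-WT mice, against 186, 75.1 and 75.3 in Runx1-null mice. For Cd52, Runx1-WT mice 1 and 2 lay below all Runx1-null mice, and for Coro1a among them, with Runx1-WT mouse 3 above all others, so the groups overlapped. Laptm5 was at 112, 131 and 786 in Runx1-WT mice, against 276, 103 and 234 in Runx1-null mice. In these libraries of sorted bulk cells, more cells of a type and more RNA per cell cannot be told apart.

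The adapter genes Tyrobp and Fcer1g had the same highest mouse but a different second one. Tyrobp was at 93.1, 125 and 718 in Runx1-WT mice, against 261, 81.1 and 286 in Runx1-null mice. Fcer1g was at 102, 87.5 and 334 in Runx1-WT mice, against 123, 78.3 and 202 in Runx1-null mice. Both were second highest in Runx1-null mouse 3, while Runx1-null mouse 1 was second for the 8 other members. Over all tested genes, 8.17% had Runx1-WT mouse 3 highest with Runx1-null mouse 1 second, and 5.46% had it highest with Runx1-null mouse 3 second. Of 10 measured genes for receptors and kinases that work with these adapters, 2 were tested, with log2 differences below 0 for both, and 0 were called. Of these 2, Fcgr3 did not pass the filter without Runx1-WT mouse 3. Fcer1g had the smallest gap of the members between Runx1-WT mouse 3 and the next mouse, 1.66-fold, and Ptprc the widest.

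The MHC class II genes shared the highest mouse with the leukocyte genes, but mostly not the lowest one. Ptprc, Laptm5, Tyrobp, Fcer1g and Coro1a were lowest in Runx1-null mouse 2, and Cd52 in Runx1-WT mouse 1. Cd74 was at 561, 504 and 4218 in Runx1-WT mice, against 1391, 824 and 732 in Runx1-null mice. H2-Aa was at 692, 605 and 3236 in Runx1-WT mice, against 1248, 668 and 743 in Runx1-null mice. H2-Ab1 was at 497, 410 and 1833 in Runx1-WT mice, against 888, 487 and 533 in Runx1-null mice. All 3 were thus highest in Runx1-WT mouse 3, second in Runx1-null mouse 1 and lowest in Runx1-WT mouse 2. H2-Eb1 was at 169, 197 and 1523 in Runx1-WT mice, against 455, 198 and 326 in Runx1-null mice, with the same first and second mouse and Runx1-WT mouse 1 lowest. H2-Ab1, H2-Aa and H2-Eb1 are neighbors in the MHC on chromosome 17.

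**Figure D1:**
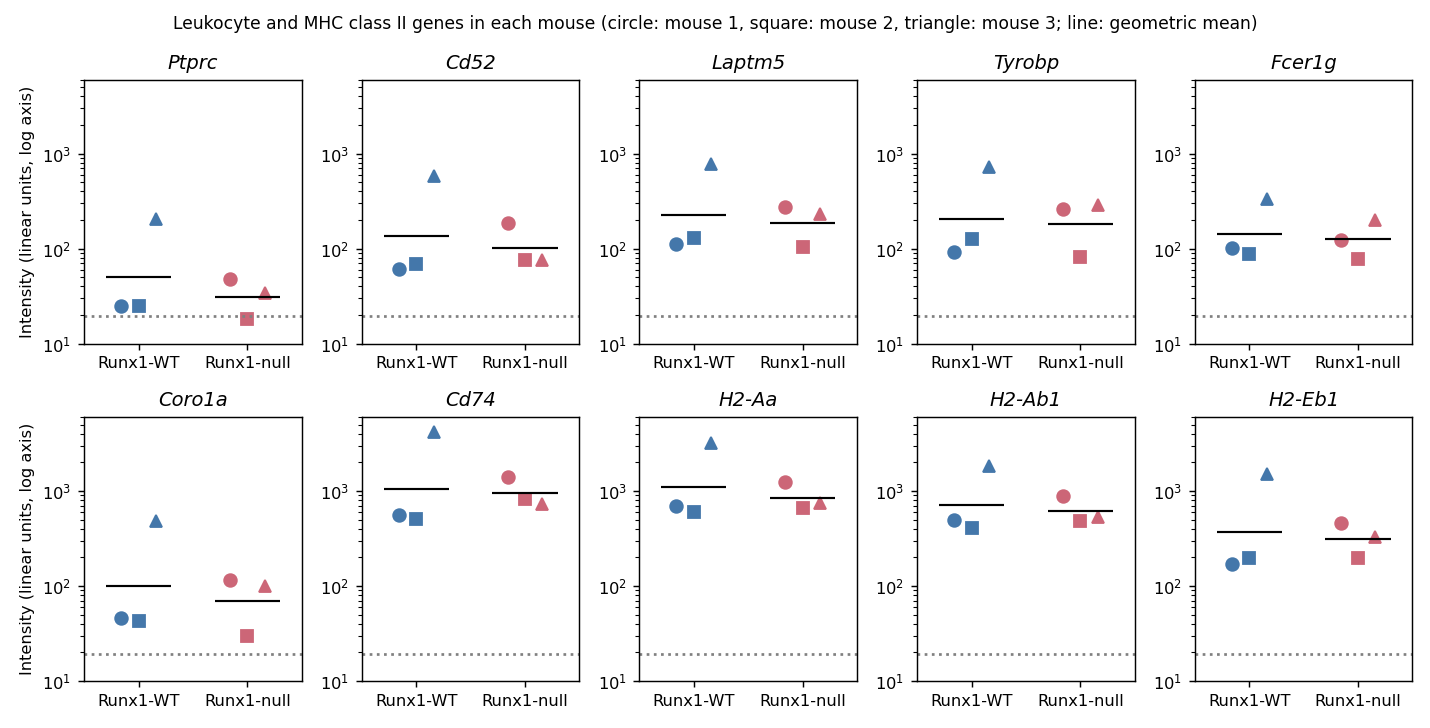
Linear intensity (log axis) of the 10 genes in each mouse, by genotype, for the brightest probe set of each gene. Points are mice, the black line is the geometric mean of 3 mice and the dotted line is the floor of 19.335. In every panel the triangle of Runx1-WT mouse 3 is the highest point, and the other Runx1-WT mice lie below the middle one of the Runx1-null mice.

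Runx1-WT mouse 3 stood at least 2-fold above the next mouse for 9 of the 10 members, which include Ptprc, under the filter. Of the 9 tested members, 8 had such a gap, against 0.856% of all tested genes (104 of 12152). This cut-off was chosen after the values were seen. By the same rule the shares for the other mice were 0.0741% and 0.115% for Runx1-WT mice 1 and 2, and 0.189%, 0.107% and 0.617% for Runx1-null mice 1, 2 and 3. This mouse was the highest for 24.5% of all tested genes. The members share the same arrays, so their counts are not separate evidence. The fold from the lowest to the highest mouse ran from 4.27 for Fcer1g to 16.4 for Coro1a, where the median tested gene had 1.63. The residual SD within genotypes had a median of 1.30 on the log2 scale over the members and 0.27 over all tested genes. Coro1a passed the filter through its value in Runx1-WT mouse 3 and did not pass it without that mouse, whereas 8 members passed either way.

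The separate probe sets of a gene gave the same picture, apart from dim ones. Of the 22 probe sets, 17 passed the filter, and in 16 of these Runx1-WT mouse 3 was at least 2-fold above the next mouse, the exception being that of Fcer1g. Those of Coro1a (488 and 453 in Runx1-WT mouse 3) and the Laptm5 ones at 290 and 209 there passed only through that mouse. Their means over the other mice lay under the cut-off of the filter, so the count of 16 follows partly from the filter. The 3 tested probe sets of H2-Aa read 3236, 2075 and 995 in Runx1-WT mouse 3, against at most 1248, 751 and 287 in any other mouse. The 3 of H2-Ab1 read 1833, 561 and 463 there, against at most 888, 157 and 164. The 5 probe sets under the filter were 2 of Ptprc and 1 each of Laptm5, Coro1a and H2-Aa. The Laptm5 one lay between 45.9 and 76.5 with its highest value in Runx1-WT mouse 2, and the H2-Aa one was under the floor on all 6 arrays. The dimmer one of Ptprc lay near the floor, highest in Runx1-null mouse 1 at 23.1, with 19.5 in Runx1-WT mouse 3. The gap seen for Ptprc thus rests on 1 probe set, itself under the filter. Probe sets of the class II genes can share sequence with related class II genes, so their values are not wholly separate.

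Between genotypes, none of the 10 members differed beyond the spread between mice. Limma, fitted over all 12152 genes, called 0 members, against 0% of all tested genes, and 0 of the 9 tested had an unadjusted p under 0.05, against 0.642% of all tested genes higher in Runx1-null mice and 1.28% lower. The log2 differences were all below 0, as were 55.4% of all tested genes, with a median of -0.34 over the 6 leukocyte genes and -0.25 over the 4 class II genes, where the median over all tested genes was -0.02. The groups overlapped for all 10 members, while they did not for 5.55% of all tested genes. Ptprc had a log2 difference of -0.67 (standard error 0.99), Coro1a of -0.50 (standard error 1.03), Cd52 of -0.41 (standard error 0.90) and Cd74 of -0.17 (standard error 0.80). Exact permutation tests, two-sided, gave p of 0.8 to 1 over the 10 genes, where 3 mice against 3 cannot go below 0.1.

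The sign of these differences depended on single mice. Without Runx1-WT mouse 3, all 10 log2 differences were above 0, as were 48.1% of all tested genes, and the medians were 0.64 for the leukocyte and 0.60 for the class II genes. Cd74 then had a log2 difference of 0.83 (standard error 0.31), H2-Eb1 of 0.76 (standard error 0.39) and Tyrobp of 0.76 (standard error 0.61). Without Runx1-null mouse 2 the median of the leukocyte genes was 0.12 and 5 members lay above 0, with Tyrobp at 0.43 the highest. Limma again called 0 genes at an adjusted p under 0.05 without either mouse. Without Runx1-WT mouse 3, only Cd74 of the tested members had an unadjusted p under 0.05, as 6.7% of all tested genes had. Its adjusted p from limma was 0.736. Animal numbers in the labels fall into a lower and an upper range, and over the 4 mice with lower numbers, 2 of each genotype, Cd74 had a log2 difference of 1.01 (adjusted p = 0.275 from limma). In the upper range, which holds Runx1-WT mouse 3 and Runx1-null mouse 3, the medians were -2.03 and -2.17, with no test.

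**Figure D2:**
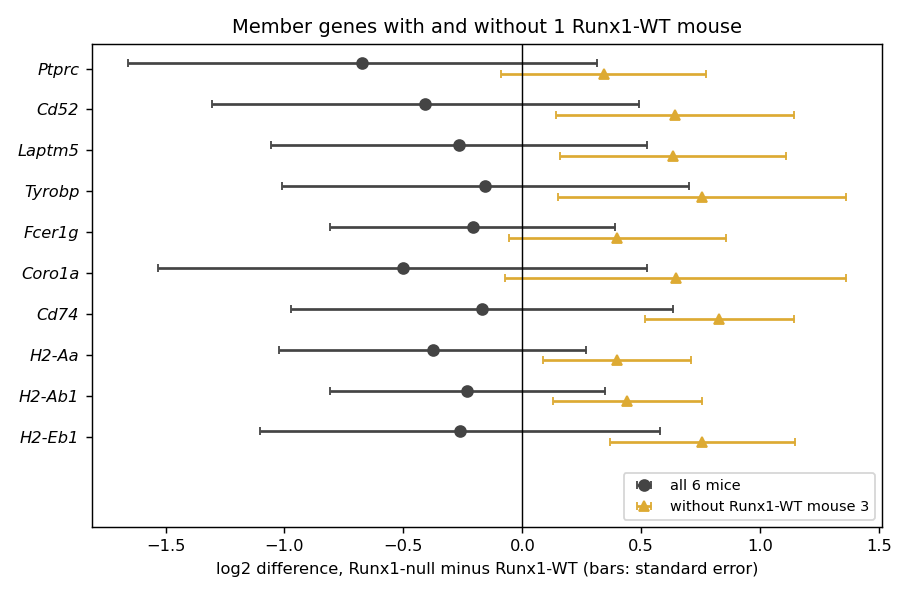
Log2 difference (Runx1-null minus Runx1-WT) of each gene over all 6 mice (circles) and without Runx1-WT mouse 3 (triangles), with limma's standard error as bars. All 10 circles lie below 0 and all 10 triangles above it, and only for Cd74, H2-Eb1, H2-Aa, H2-Ab1, Cd52, Laptm5 and Tyrobp do the bars of the triangles stay clear of 0.

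Markers of particular leukocytes were compared with the members, by lists drawn from general knowledge. Of 11 tested macrophage and monocyte genes, 9 were highest in Runx1-WT mouse 3, where 24.5% of all tested genes were. Among these 9, Adgre1 and Fcgr3 did not pass the filter without that mouse. Only 2 of the 11 (Lyz2 and Mpeg1) had that mouse at least 2-fold above the next. The part of these cells in the members' values was not tested. C1qb, a chain of complement C1q, was at 136, 135 and 842 in Runx1-WT mice, against 263, 155 and 497 in Runx1-null mice. Lyz2, a lysozyme, was at 384, 363 and 1894 in Runx1-WT mice, against 450, 269 and 569 in Runx1-null mice. Csf1r, the receptor of macrophage colony-stimulating factor, did not follow, at 238, 321 and 155 in Runx1-WT mice, against 279, 194 and 263 in Runx1-null mice, and Cd68 was highest in Runx1-null mouse 3. The list had 4 log2 differences above 0 and 7 below, with a median of -0.23 and 0.25 without Runx1-WT mouse 3, and 0 genes were called. The summed intensity of its 16 measured genes was 1774 to 5839 in Runx1-WT mice and 1542 to 3297 in Runx1-null mice.

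Genes of T, B, NK and mast cells were mostly dim. Cd3e, a chain of the T cell receptor complex, was at 27.2, 22.0 and 294 in Runx1-WT mice, against 35.9, 46.5 and 30.9 in Runx1-null mice, so it stood out in Runx1-WT mouse 3 alone. It was the only tested T cell gene with that mouse at least 2-fold above the next, and it did not pass the filter without that mouse. Cd3d and Cd3g, under the filter, were also highest there, at 59.4 and 61.4, 2.07 and 2.52 times the next mouse. They had 3 and 4 values under the floor. Cd2, Cd247 and Bcl11b were highest in Runx1-null mouse 2, at 164, 228 and 150. Cd8a was highest in Runx1-WT mouse 3 at 99.3 and did not pass the filter without it. Of the 12 measured T cell genes 5 were tested, of 10 B cell genes 1, of 7 NK and cytotoxic genes 1, of 9 dendritic cell genes 2 and of 7 mast cell and basophil genes 1. None was called. Cd79a, a part of the B cell receptor, was under the filter, with 56.2 in Runx1-WT mouse 3 against 7.24 to 21.1 elsewhere. The tested B cell gene, Jchain, the joining chain of secreted antibodies, was instead highest in Runx1-null mouse 2, at 624 against 374 in Runx1-WT mouse 3. Ighm, the heavy chain of IgM, did not pass the filter. It reached 213 in Runx1-null mouse 3, its highest, and was at 29.3 in Runx1-WT mouse 3. The neutrophil list differed in its highest mouse: S100a9 was at 1011 in Runx1-null mouse 1, 226 in Runx1-WT mouse 3 and 21.0 to 58.9 in the other mice. Of 4 measured erythroid genes 1 was tested, Alas2, the heme synthesis enzyme of red cells, at 101 ± 18.2 (SD, n = 3) in Runx1-WT mice, against 58.2 ± 12.5 (SD, n = 3) in Runx1-null mice (log2 difference -0.79, unadjusted p = 0.0461 and adjusted p = 0.9997 from limma).

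Further genes used widely by leukocytes did not all follow the members. Of 22, 11 were tested, 5 were highest in Runx1-WT mouse 3 and 4 of these were at least 2-fold above the next mouse (Cd53, Plek, Fyb and Arhgdib). Plek, Fyb and Arhgdib did not pass the filter without that mouse, so this count follows partly from the filter. The log2 differences of the 11 tested genes were above 0 for 2 and below for 9. Their median was -0.39, and 0.32 without Runx1-WT mouse 3, and 0 were called. Cd53, a tetraspanin, was at 163, 159 and 1004 in Runx1-WT mice, against 255, 110 and 302 in Runx1-null mice. Lcp1, an actin-bundling protein, was at 3907 in Runx1-WT mouse 3 and at 2581 to 5217 in the others. Dock2, a Rac exchange factor, was instead highest in Runx1-WT mouse 2, at 650, 904 and 164 in Runx1-WT mice, against 98.1, 104 and 271 in Runx1-null mice. Its log2 difference was below 0, as for the members (-1.71, unadjusted p = 0.0463 and adjusted p = 0.9997 from limma).

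Runx1-null mice 1 and 3 differed in which of these genes were high. Runx1-null mouse 3 was above Runx1-null mouse 1 for 9 of 11 macrophage and monocyte genes, for 2 of the 6 leukocyte members (Tyrobp and Fcer1g) and for 0 of the 4 class II members, against 48.6% of all tested genes. C1qa was 1.05 higher on the log2 scale in Runx1-null mouse 3 than in Runx1-null mouse 1, and Fcer1g 0.72 higher. Cd74 had a log2 ratio of -0.93 and Cd52 of -1.31 between the same mice. These are values of 2 mice of the same genotype, with no test. Runx1-null mouse 3 had the higher 3' to 5' difference of actin, 0.74 against 0.52 in Runx1-null mouse 1, and the part of RNA quality in these ratios was not tested.

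**Figure D3:**
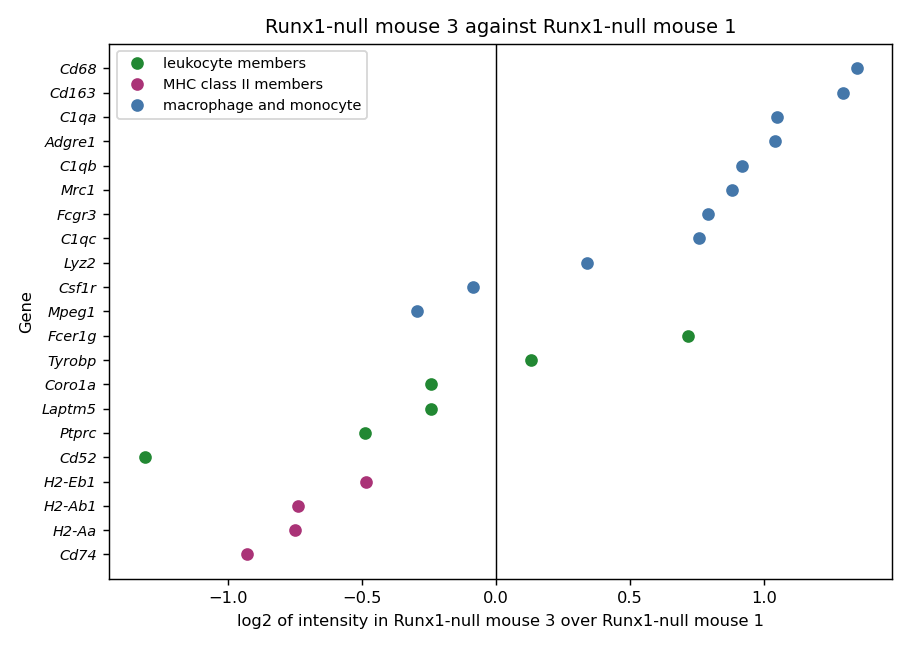
Log2 ratio of intensity in Runx1-null mouse 3 over Runx1-null mouse 1 for each member and each tested macrophage and monocyte gene, with values under the floor set to it. Class II genes lie left of 0 (-0.93 to -0.48), and macrophage genes lie right of it except Csf1r and Mpeg1.

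Genes that load class II molecules or control their transcription gave mixed patterns. Of 11 tested of 15 measured, 3 log2 differences were above 0 and 8 below, with a median of -0.09, and 0 were called. Ctss, the cathepsin that trims the invariant chain, was at 233, 295 and 1469 in Runx1-WT mice, against 500, 265 and 385 in Runx1-null mice. Its first and second mouse were those of 8 of the members. H2-DMa, a subunit of the peptide exchange factor H2-DM, had its highest value of 606 in Runx1-WT mouse 2 and its lowest of 100.2 in Runx1-null mouse 1. Ciita, which encodes the class II coactivator, lay between 27.5 and 49.2 in all mice and did not pass the filter. Rfx5, a subunit of the factor that binds the class II promoter, ranged only from 2724 to 3512, and the thiol reductase gene Ifi30 from 3014 to 4729.

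Of 8 tested genes of the interferon gamma response, 6 had a log2 difference below 0 and 2 above, with a median of -0.30, and 0 were called. Runx1-WT mouse 3 was the highest for 5 of the 8, against 24.5% of all tested genes. It was at least 2-fold above the next mouse for 1, against 0.856% of all. Gbp2, an interferon-induced GTPase, was at 1562 ± 164 (SD, n = 3) in Runx1-WT mice, against 968 ± 57.7 (SD, n = 3) in Runx1-null mice, a log2 difference of -0.69 (standard error 0.16, unadjusted p = 0.00371 and adjusted p = 0.9997 from limma). Its groups did not overlap, which the members' groups all did. Cxcl9, a chemokine induced by interferon gamma, followed the members, at 77.1, 84.0 and 639 in Runx1-WT mice, against 142, 127 and 100.4 in Runx1-null mice. Cxcl10 had the same first and second mouse, at 477, 305 and 1509 in Runx1-WT mice, against 870, 773 and 539 in Runx1-null mice. The receptor gene Ifngr1 did not follow the members, being highest in Runx1-null mouse 2 at 2688 and lowest in Runx1-WT mouse 2 at 1581.

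Markers of other cells of the gland were compared in the same way. None of 9 tested endothelial, 7 basal and myoepithelial or 6 stromal genes had Runx1-WT mouse 3 at least 2-fold above the next mouse. As only 0.856% of all tested genes did, a count of 0 among so few genes does not set these lists apart. Endothelial genes had 9 of 9 log2 differences below 0, against 55.4% of all tested genes, with a median of -0.47, and 0 were called. Tek, an angiopoietin receptor, had an unadjusted p = 0.0476 and adjusted p = 0.9997 from limma. Stromal genes had 6 of 6 below 0, with a median of -0.61, and a median profile of -1.50 in Runx1-null mouse 3, its lowest. Unlike the members, 0 endothelial and 0 stromal genes lay above 0 without Runx1-WT mouse 3, with medians of -0.53 and -0.66. Basal and myoepithelial genes had 5 of 7 above 0, with a median of 0.32. Their median profile was 0.61 in Runx1-WT mouse 3, against -0.26 and -0.32 in Runx1-WT mice 1 and 2. It was highest in Runx1-null mouse 2, at 0.75. The part of these cell types in the members' values was not tested.

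**Figure D4:**
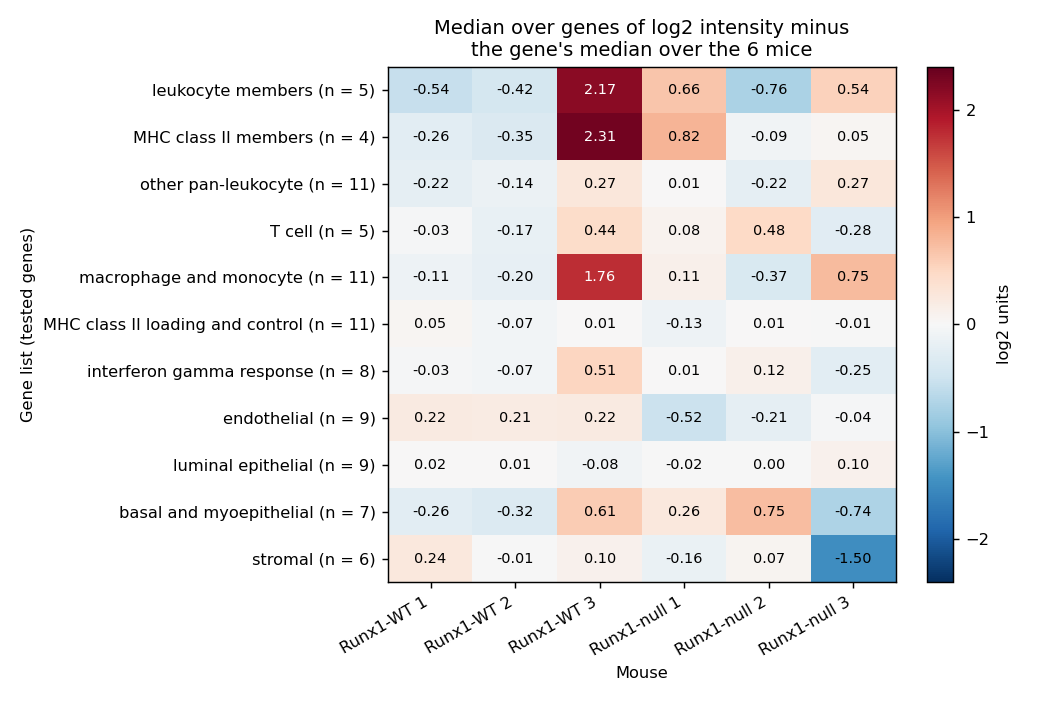
Median over the tested genes of each list (n in brackets) of log2 intensity minus the gene's median over the 6 mice, for each mouse. In Runx1-WT mouse 3 the leukocyte members are at 2.17, the MHC class II members at 2.31 and the macrophage genes at 1.76. The other pan-leukocyte genes are at 0.27 there, as in Runx1-null mouse 3. T cell genes are at 0.44 there and at 0.48 in Runx1-null mouse 2. Basal and myoepithelial genes are at 0.61 there, while luminal epithelial genes stay within -0.08 to 0.10 in every mouse.

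The 10 genes whose profile over the 6 arrays was most like the mean of the leukocyte members, by Pearson's r of log2 values and given as a description, were Psmf1, Cryba4, Tubb4a, Cd53, Ctss, Nelfcd, E2f6, Ly86, Ntf5 and Plek (r of 0.977 to 0.995). For the class II members they were Rpusd3, Atp7b, Commd1, Ankrd13b, Tmem132a, Zfp319, Il1b, E2f6, Ctss and Dbn1 (r of 0.981 to 0.997). Cd53, Ctss, Ly86, Plek and Il1b are leukocyte genes, and most of the others are not known as such. Only genes past the filter were searched, and Ly86 and Plek passed it only through their values in Runx1-WT mouse 3. Over the 5 arrays without Runx1-WT mouse 3, the coefficients of the 10 genes named for the leukocyte members were 0.902 to 0.992. Those of the 10 genes named for the class II members were 0.888 to 0.985. With all 6 arrays, 40 and 75 genes had an r of 0.95 or more. Psmf1, which encodes a proteasome inhibitor, headed the first list although its intensity in Runx1-WT mouse 3 was only 1.15 times that in the next mouse, since r does not measure size.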

How the data were processed

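RNA of sorted YFP+ luminal MECs from 6 mice, 3 per genotype, was amplified with NuGEN Ovation V2 and measured on Affymetrix Mouse Genome 430 2.0 arrays. The deposited table holds linear intensities of 45101 probe sets, which the authors had normalized with dChip (version and model not given in the sources used here). The study describes the genotypes as littermates, but the litter of each mouse is not given, so it is not in the fit. Arrays give no counts, and their number limits the precision. Of the probe sets, 34958 had 1 gene in the platform annotation, 932 had several and 9211 were not named here and not used.

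A floor was placed at the 20th percentile of all values (19.335) before log2 transformation. For each gene the probe set with the highest mean was kept. The 12152 genes at or over the 40th percentile of mean intensity (73.5) entered limma 3.58.1 in R 4.3.3, using lmFit and eBayes with an intensity trend, and p-values were adjusted by Benjamini-Hochberg with a threshold of 0.05. Members under the filter were read from a fit without one. Alternatives were other filters, quantile normalization, median scaling, a pseudocount of 5.04, dropping single mice, a block for the animal number range, each such range by itself, other variance models, array weights, the mean over probe sets, single probe sets, the methods' t-test and a threshold of 0.1.

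The members, the 18 gene lists and the tests were chosen with earlier results of these data known. The rule named all members, list genes with an unadjusted p under 0.05 or the highest intensities, and the 10 most alike genes; other list genes were named after their values were seen.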

Additional observations from a re-analysis of the deposited data

How the results depend on the processing

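Limma called 0 genes and 0 members in all alternatives tried, the methods' t-test after adjustment and a threshold of 0.1 included. The count at an unadjusted p under 0.05 over all genes was 234 in the reported fit and 78 to 811 without each mouse in turn. It was 1830 in the lower range of animal numbers, 1752 with array weights (whose fit did not converge fully) and 123 after median scaling, and the cause was not tested. The medians kept their sign under quantile normalization, median scaling and the pseudocount. Without each mouse in turn the median log2 difference ran from -0.87 to 0.64 for the leukocyte and from -0.71 to 0.60 for the class II members, and the highest value of each is that without Runx1-WT mouse 3. The ranges for single genes were -1.18 to 0.34 for Ptprc, -0.98 to 0.64 for Cd52, -0.77 to 0.63 for Laptm5, -0.72 to 0.76 for Tyrobp, -0.57 to 0.40 for Fcer1g, -1.10 to 0.64 for Coro1a, -0.71 to 0.83 for Cd74, -0.81 to 0.40 for H2-Aa, -0.64 to 0.44 for H2-Ab1 and -0.83 to 0.76 for H2-Eb1. The values above 0 came without Runx1-WT mouse 3 for all 10 members, without Runx1-null mouse 2 for 5 members (0.11 for Coro1a, 0.13 for Fcer1g, 0.056 for H2-Eb1, 0.17 for Laptm5 and 0.43 for Tyrobp), and without Runx1-null mouse 3 for Cd74 (0.015). In the lower range of animal numbers, which leaves out Runx1-WT mouse 3 and Runx1-null mouse 3, the differences were 0.29 for Ptprc, 0.86 for Cd52, 0.48 for Laptm5, 0.43 for Tyrobp, 0.052 for Fcer1g, 0.40 for Coro1a, 1.01 for Cd74, 0.50 for H2-Aa, 0.54 for H2-Ab1 and 0.72 for H2-Eb1. With array weights 7 members lay above 0, at 0.35 for Cd52, 0.086 for Laptm5, 0.094 for Tyrobp, 0.55 for Cd74, 0.033 for H2-Aa, 0.068 for H2-Ab1 and 0.34 for H2-Eb1. Ptprc, Fcer1g and Coro1a stayed below 0 with array weights (-0.20, -0.20 and -0.29), and the medians were -0.056 for the leukocyte and 0.21 for the class II members. In the upper range, a comparison added after seeing the data, the medians were -2.03 for the leukocyte and -2.17 for the class II members. No paired analysis was possible because the labels give the mice no shared replicate numbers and the sources used here do not say which mice were from 1 litter. Blocking on the animal number range also gave 0 called genes and 305 at an unadjusted p under 0.05. Ptprc, at no more than 47.4 in 5 of the mice, lies close to the floor there, which limits what can be said of it.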

Other observations

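Runx1-WT mouse 3 also stood apart for genes outside the lists used in the report. Of the 104 tested genes with this mouse at least 2-fold above the next, 8 were members and 7 were on the lists of other leukocyte genes. Among these, Coro1a, Cd3e, Plek, Fyb and Arhgdib did not pass the filter without this mouse. Further genes among the 104 that leukocytes are known to express, such as Il1b, Ly86 and Cybb, were on none of the lists. Of these, Ly86 was at 205 in this mouse and at 27.4 to 85.6 in the others. Its mean over the others lay under the cut-off of the filter, so Ly86 passed only through this mouse. The gene furthest apart was Tnfsf11, which encodes RANKL, a progesterone-induced paracrine signal of luminal cells, at 4980 in this mouse, 337 in Runx1-null mouse 1 and 6.87 to 134 in the others. Csn2, which encodes beta-casein, was at 3119 in this mouse, 365 in Runx1-null mouse 1 and 4.32 to 231 in the others. Spib, an ETS factor of B cells and other lineages, was at 2064 against at most 147 in any other mouse. For each of these 3 genes Runx1-null mouse 1 was second, as it was for 8 of the 10 members. Chemokine genes were also among the 104, such as Ccl20 at 458 against at most 75.2 and Ccl5 at 496 against at most 181. These genes were chosen after their values were seen.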
